A study of Mus musculus with 28 samples.

Results

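Keratin mRNA was read in RNA of endothelial and mural cells sorted from mouse brains with brain metastases (BrM) and from non-tumor brains. The members are 9 keratin genes, Krt5, Krt7, Krt8, Krt14, Krt17, Krt18, Krt19, Krt20 and Krt23, taken by name from the 53647 genes of the count table after their Ensembl IDs were matched to mouse symbols. All 9 were in the table, which also holds 46 other keratin symbols. Every mouse carried PDGFRβ-CreERT2 and Rosa-tdTomato and, per the labels, was given tamoxifen (2 mg a day for 5 days), so that tdTomato marks cells in which the Pdgfrb promoter drove Cre. Lung BrM came from intracardiac injection of Sv2T3-BrM1 cells and breast BrM from PyMT-BrM3 cells, each a single line, and non-tumor brain was the reference. Cells were gated as CD45-, CD11B- and EPCAM-, and then as PDGFRβ-tdTom+ (mural, here the PDGFRb sort) or CD31+ (endothelial, here the CD31 sort). The PDGFRb sort had 4 lung BrM, 4 breast BrM and 5 non-tumor libraries, and the CD31 sort had 5 of each. Ages were not given, 13 of the 15 mice or pools gave both sorts, and 2 lung BrM replicates (55169-70 and 56195-56520) name 2 mouse numbers each.

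Keratins are the intermediate filament proteins of epithelia. A filament needs a type I and a type II keratin in equal amounts, and the pairs differ by tissue: Krt8 (type II) with Krt18 (type I) is the basic pair of simple, single-layered epithelia, to which Krt7 (type II), Krt19 and Krt20 (type I) are added in ducts, gut or urothelium, while Krt5 (type II) with Krt14 (type I) belongs to the basal layer of stratified and glandular epithelia. Brain endothelial cells and pericytes are known for vimentin and desmin filaments rather than for keratins, so keratin mRNA in these sorts is read here as a measure of epithelial RNA. No library of the cancer cell lines alone was analysed here, so its source in cancer cells was not tested. In such bulk samples, more keratin-expressing cells and more keratin mRNA per cell cannot be told apart.

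The promoters of the keratins that carried most of the results are shown, from 250 bases before to 50 after the annotated start (RefSeq, GRCm38.p6), because several of these genes moved together. Krt8, Krt18 and Krt7 were read in the sorts of both tumor types, Krt20 mostly in lung BrM, and Krt23 made up a larger share in breast BrM. Promoters of 7 of the 9 members matched, and none is shown for Krt17 or Krt19. Capitals mark the TATA box letters TATAAA and the E-box letters CAGGTG, to which the epithelial repressors SNAI1 and ZEB1 are known to bind, each on either strand.
Krt8, type II (chr15:102004293-102004592, minus strand): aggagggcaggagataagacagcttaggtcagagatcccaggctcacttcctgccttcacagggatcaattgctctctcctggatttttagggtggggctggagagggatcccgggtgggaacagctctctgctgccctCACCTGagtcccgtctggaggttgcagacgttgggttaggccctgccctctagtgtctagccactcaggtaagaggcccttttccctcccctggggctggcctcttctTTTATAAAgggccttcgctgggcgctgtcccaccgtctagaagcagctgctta
Krt18, type I (chr15:102027966-102028265, plus strand): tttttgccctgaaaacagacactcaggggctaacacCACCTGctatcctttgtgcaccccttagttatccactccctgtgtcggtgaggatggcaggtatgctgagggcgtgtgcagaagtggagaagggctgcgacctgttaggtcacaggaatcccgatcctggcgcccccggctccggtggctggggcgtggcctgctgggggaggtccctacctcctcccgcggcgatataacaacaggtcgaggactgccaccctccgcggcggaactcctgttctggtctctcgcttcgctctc
Krt7, type II (chr15:101412153-101412452, plus strand): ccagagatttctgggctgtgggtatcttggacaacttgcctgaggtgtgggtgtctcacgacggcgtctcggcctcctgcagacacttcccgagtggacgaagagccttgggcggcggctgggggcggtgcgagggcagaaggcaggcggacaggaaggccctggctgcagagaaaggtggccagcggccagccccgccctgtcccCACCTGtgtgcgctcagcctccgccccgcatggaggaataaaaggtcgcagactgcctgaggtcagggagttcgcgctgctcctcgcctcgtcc
Krt20, type I (chr11:99438104-99438403, minus strand): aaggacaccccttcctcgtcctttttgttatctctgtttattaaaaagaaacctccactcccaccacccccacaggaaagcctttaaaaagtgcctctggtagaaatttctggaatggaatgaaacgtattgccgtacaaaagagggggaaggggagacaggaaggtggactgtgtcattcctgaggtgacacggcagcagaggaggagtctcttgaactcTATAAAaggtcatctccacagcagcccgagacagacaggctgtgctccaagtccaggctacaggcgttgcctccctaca
Krt23, type I (chr11:99493071-99493370, minus strand): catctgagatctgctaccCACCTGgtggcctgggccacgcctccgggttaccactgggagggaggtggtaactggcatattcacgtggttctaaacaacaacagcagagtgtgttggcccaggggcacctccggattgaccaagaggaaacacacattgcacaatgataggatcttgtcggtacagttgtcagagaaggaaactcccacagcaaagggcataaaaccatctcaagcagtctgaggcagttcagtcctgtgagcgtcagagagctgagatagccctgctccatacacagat
The E-box letters stood in the windows of Krt7, Krt8, Krt18 and Krt23 of the 5 shown, and in 20.2% of 32851 promoters of the same length. The letters TATAAA stood in Krt20, and in Krt8 on both strands, where the matches overlap, against 13.6% of all promoters. These letters were chosen with the sequences in view, and a match is no evidence of binding. Krt8 and Krt18 lie 23874 bases apart on chromosome 15, Krt18 being the only type I keratin placed among the type II genes, while Krt14, Krt17, Krt19, Krt20 and Krt23 lie in the type I cluster on chromosome 11.

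Libraries held between 7105172 and 23934042 expected counts. One stood apart, the PDGFRb library of breast BrM mouse 51950, with the lowest total and 9174 genes with a count, against 12601 to 22752 in the other 27. A count of 0 allows a level of up to 0.125 to 0.422 CPM (counts per 1000000 of a library), depending on the library, for counting error only. The sorts carried their defining markers, with an exception in lung BrM. Summed over 9 mural markers, PDGFRb libraries of lung BrM had 279, 327, 505 and 8654 CPM, the last from mouse 51435, against 6563 to 18890 CPM in breast BrM and 17870 to 38200 CPM in non-tumor brain. Mural markers were thus low in 3 of the 4 PDGFRb lung BrM libraries, and their part in the keratin results was not tested. The sum of 8 endothelial markers was 6006 to 9057 CPM in CD31 lung BrM, 4597 to 9044 in CD31 breast BrM and 10720 to 12770 in CD31 non-tumor libraries. For non-tumor mouse 54135 the title and the cell type label of each library name opposite sorts, and the title was used. By title its PDGFRb library had 17870 CPM of the mural and 159 CPM of the endothelial markers, and its CD31 library 17.8 CPM of the mural and 10720 CPM of the endothelial markers, as the titles name them.

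Krt8 and Krt18, the simple-epithelial pair, were the most abundant members in BrM and rose in both sorts and both tumor types. In the PDGFRb sort, Krt8 was read at 2389, 3224, 2894 and 4185 CPM in lung BrM, at 354, 579, 529 and 1229 CPM in breast BrM and at 0.94, 8.78, 3.81, 1 and 4.72 CPM in non-tumor brain. The 3 groups did not overlap, with lung BrM highest. Krt18 followed with 2218, 3452, 3055 and 3394 CPM in lung BrM, 289, 721, 778 and 1514 CPM in breast BrM and 1.01, 32.6, 7.33, 1.26 and 4.94 CPM in non-tumor brain. Krt8 was higher by 9.83 ± 0.76 on the log2 scale in lung BrM than in non-tumor brain (fold 913, SE and p from the quasi-likelihood test of edgeR, adjusted p by Benjamini-Hochberg = 3.2e-06) and by 7.62 ± 0.70 in breast BrM (adjusted p = 5.7e-05). The same test gave Krt18 8.44 ± 1.04 in lung BrM (adjusted p = 0.00014) and 6.58 ± 0.96 in breast BrM (adjusted p = 0.0013). Non-tumor mouse 54132 had the highest Krt18 of its group, and without that library the Krt18 change was 9.86 in lung BrM and 8.02 in breast BrM. Between the tumor types, Krt8 was 4.63-fold higher in lung than in breast BrM (log2 2.21 ± 0.60, adjusted p = 0.048). Krt18 had 1.86 ± 0.86 on the log2 scale there and did not pass (adjusted p = 0.23). The Krt8 call was marginal: it was lost, with log2 values of 1.98 to 2.24 and adjusted p of 0.066 to 0.13, when any of lung BrM mice 54957, 55169-70 or 56195-56520, breast BrM mice 51950, 52599 or 52865, or non-tumor mice 54135 or 56740 was left out.

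**Figure D1:**
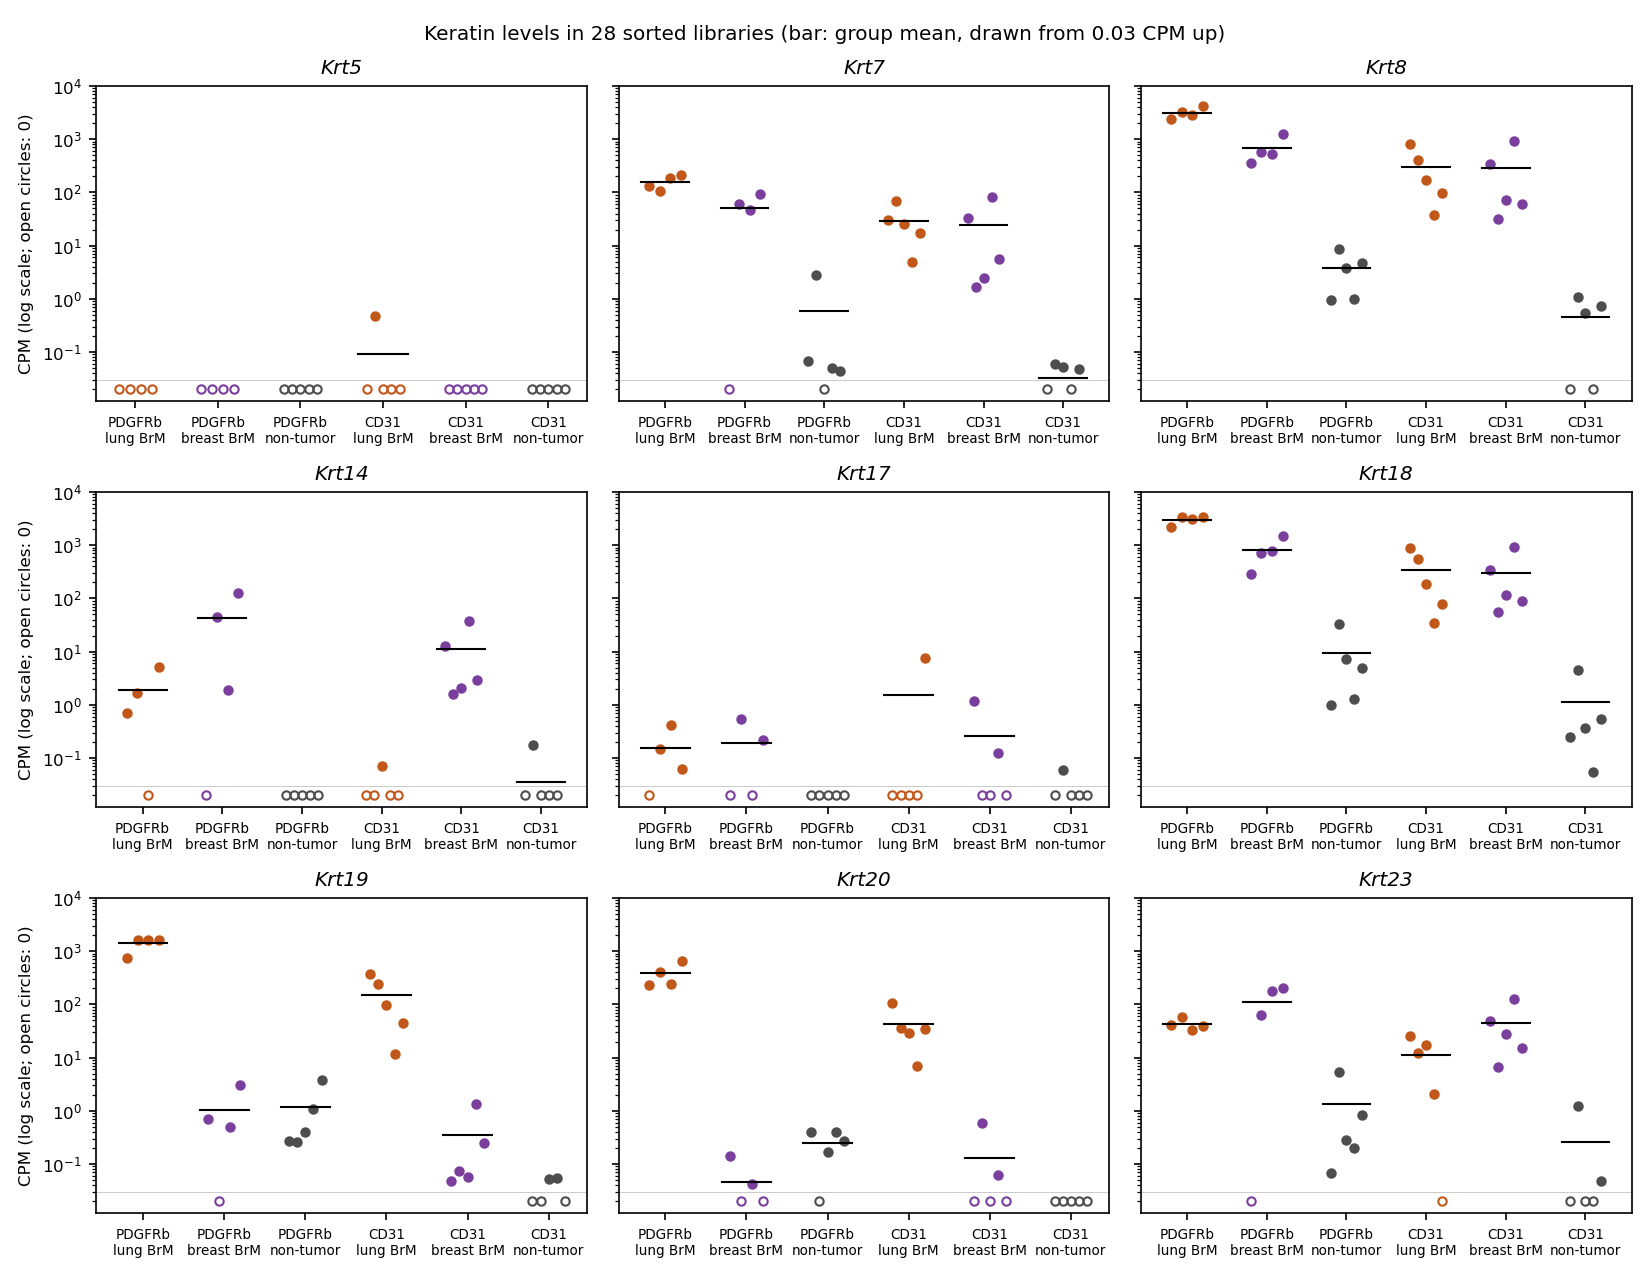
Levels of the 9 keratins in CPM on a logarithmic axis, a panel per gene, with a point per library in the 6 groups, open circles for a count of 0 and a bar for each group mean of 0.03 CPM or more. Krt8 and Krt18 stand highest in the PDGFRb sort of lung BrM, Krt19 and Krt20 are high in lung BrM of both sorts, and Krt5 has a count in a single library.

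In the CD31 sort the pair varied more between mice. Krt8 stood at 825, 400, 171, 37.0 and 98.1 CPM in lung BrM, at 338, 31.6, 73.1, 905 and 59.7 CPM in breast BrM and at 0, 1.06, 0.528, 0 and 0.721 CPM in non-tumor brain. Lung and breast BrM overlapped over most of their range, and both lay above every non-tumor library. Krt18 had 871, 546, 188, 33.8 and 80.0 CPM in lung BrM, 343, 55.7, 118, 919 and 89.2 CPM in breast BrM and 0.243, 4.52, 0.369, 0.0545 and 0.529 CPM in non-tumor brain. By edgeR's test Krt8 was higher by 9.36 ± 1.32 on the log2 scale in lung BrM (adjusted p = 5.2e-05) and by 9.17 ± 1.32 in breast BrM (adjusted p = 6.3e-05), and Krt18 by 8.26 ± 1.28 in lung BrM (adjusted p = 0.00013) and 8.02 ± 1.27 in breast BrM (adjusted p = 0.00016). Lung and breast BrM differed by 0.19 ± 0.87 for Krt8 and 0.24 ± 0.91 for Krt18 (adjusted p = 0.95 and 0.94). These means lean on a few mice. Without lung BrM mouse 51435 the lung changes were 8.59 for Krt8 and 7.59 for Krt18, without breast BrM mouse 53072 the breast changes were 8.02 for Krt8 and 7.03 for Krt18, and without non-tumor mouse 54132 Krt18 had 10.1 in lung BrM and 9.86 in breast BrM. On the dates, read from the column names, that held both BrM and non-tumor libraries, every BrM library was above every non-tumor library for Krt8 and Krt18 in 6 of 6 comparisons, for Krt7 and Krt19 in 5, for Krt14 and Krt23 in 4 and for Krt20 in 2. The 2 comparisons of Krt20 were those of lung BrM. Some of Krt19 were of breast BrM near the floor, as in the CD31 sort with 0.0568 to 0.243 against 0.0528 CPM. Each comparison set 2 or 3 BrM against 1 or 2 non-tumor libraries. So few libraries often fall in such an order by chance, and the share over all genes was not taken. No date held both lung and breast BrM, so that date and line cannot be told apart except through the non-tumor libraries.

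Krt19 and Krt20, type I keratins of ductal and intestinal epithelium, separated lung from breast BrM. In the PDGFRb sort Krt19 had 729, 1656, 1624 and 1588 CPM in lung BrM, against 0.704, 0, 0.501 and 3.002 CPM in breast BrM and 0.269, 0.263, 0.392, 1.05 and 3.83 CPM in non-tumor brain. Breast BrM overlapped non-tumor brain throughout, and lung BrM stood far above both. The CD31 sort gave 364, 241, 98.8, 11.6 and 43.8 CPM in lung BrM, 0.048, 0.0733, 0.0568, 1.36 and 0.243 CPM in breast BrM and at most 0.0545 CPM in non-tumor brain. Krt20 was read at 231, 407, 243 and 667 CPM in PDGFRb lung BrM, at no more than 0.141 CPM in PDGFRb breast BrM and at up to 0.403 CPM in PDGFRb non-tumor brain. CD31 lung BrM had 107, 35.3, 28.5, 6.78 and 34.5 CPM of Krt20, CD31 breast BrM at most 0.587 CPM, and no CD31 non-tumor library had a count.

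By edgeR's test Krt19 was higher in lung than in breast BrM by 10.36 ± 1.34 on the log2 scale in the PDGFRb sort (fold 1320, adjusted p = 0.00077) and by 8.79 ± 1.03 in the CD31 sort (fold 443, adjusted p = 0.00024). Without breast BrM mouse 53072, the highest of its group, the PDGFRb value was 11.77 and the CD31 value 10.38, and without lung BrM mouse 51435 the CD31 value was 8.20. Krt20 had 2 counts in all 4 PDGFRb breast BrM libraries, a ratio of lung to breast BrM of 11900 with a 95% counting interval of 3300 to 98400 (adjusted p = 3.7e-05). Among CD31 libraries Krt20 was higher by 8.48 ± 1.20 (adjusted p = 0.0028), 7.77 without lung BrM mouse 51435 and 11.07 without breast BrM mouse 52599, which held 8 of the 9 counts of its group. Against non-tumor brain, PDGFRb lung BrM had 10.40 ± 1.20 more Krt19 on the log2 scale (adjusted p = 8.8e-05, 11.62 without non-tumor mouse 56740) and 10.77 ± 0.81 more Krt20 (adjusted p = 2.4e-06). CD31 lung BrM had 7030 times the Krt19 level of non-tumor brain, where 2 counts were read (interval 1950 to 58100, adjusted p = 2.7e-06), and at least 1350-fold more Krt20 against 3 counts over the group (adjusted p = 6.2e-05). Without mouse 51435 the fitted CD31 log2 values, which depend on the prior count where a group has 3 or fewer counts, were 11.79 for Krt19 and 11.88 for Krt20, against 12.38 and 12.53 with it, and without breast BrM mouse 51950 that of Krt20 between the PDGFRb tumor groups was 13.94, against 13.23. With the date as a covariate, only Krt20 in the PDGFRb sort kept its call between lung and breast BrM, while Krt19 had 8.34 among PDGFRb libraries (adjusted p = 0.091) and 7.63 among CD31 libraries (adjusted p = 0.86), and Krt20 8.21 in the CD31 sort (adjusted p = 1). In breast BrM neither passed the test against non-tumor brain. Krt19 differed from non-tumor brain by 0.04 ± 0.94 in the PDGFRb sort (adjusted p = 0.99), and its sign there turned under several alternatives, and in the CD31 sort 30 counts stood against 2 (adjusted p = 0.12). Krt20 had 2 counts against 23 in the PDGFRb sort (adjusted p = 0.14, and 0.047 without non-tumor mouse 54132) and 9 against 0 in the CD31 sort (adjusted p = 0.14).

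Krt7, a type II keratin of ducts and glands, rose in both tumor types and both sorts. PDGFRb lung BrM had 130, 106, 187 and 216 CPM and PDGFRb breast BrM 0, 59.2, 45.8 and 94.0 CPM, against 0.0672, 2.74, 0, 0.0502 and 0.0445 CPM in non-tumor brain. The value of 0 came from the shallow library of mouse 51950. CD31 lung BrM had 30.2, 67.7, 25.9, 4.80 and 16.9 CPM and CD31 breast BrM 33.2, 1.69, 2.44, 80.6 and 5.53 CPM, against 3 counts in the 5 non-tumor libraries. Krt7 was higher by 8.15 ± 1.69 in PDGFRb lung BrM (edgeR, adjusted p = 0.0053) and by 6.48 ± 1.58 in PDGFRb breast BrM (adjusted p = 0.022), both on the log2 scale, and without non-tumor mouse 54132 by 11.81 in lung BrM and 10.15 in breast BrM. The breast call was lost (adjusted p of 0.05 to 0.057) without breast BrM mouse 53072 or non-tumor mouse 53680, 56727 or 56740. The CD31 ratios to non-tumor brain were 861 in lung BrM (counting interval 294 to 4180, adjusted p = 6.4e-05) and 782 in breast BrM (267 to 3800, adjusted p = 9.1e-05). With the date as a covariate the Krt7 calls were lost in the PDGFRb sort (adjusted p = 0.068 in lung BrM and 0.14 in breast BrM) and kept among CD31 libraries. Without CD31 lung BrM mouse 51697 the fitted log2 value was 8.95, against 9.54 with it, and without CD31 breast BrM mouse 53072 it was 8.04, against 9.24. Lung and breast BrM did not differ past the threshold in Krt7 (1.67 ± 1.39 in the PDGFRb sort, adjusted p = 0.56, and 0.31 ± 0.85 in the CD31 sort, adjusted p = 0.91).

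Krt23, a type I keratin known to be induced in damaged liver, also rose in both tumor types, with its highest levels in breast BrM. In the PDGFRb sort it had 41.1, 58.8, 32.6 and 39.2 CPM in lung BrM, 0, 62.7, 182 and 204 CPM in breast BrM and 0.0672, 5.31, 0.28, 0.201 and 0.846 CPM in non-tumor brain. The 0 was again mouse 51950, and the other 3 breast BrM libraries lay above all 4 of lung BrM. Among CD31 libraries, lung BrM had 25.1, 12.0, 17.3, 2.04 and 0 CPM, breast BrM 49.4, 6.53, 27.2, 125 and 14.8 CPM, and non-tumor brain at most 1.23 CPM. The 0 of lung BrM was mouse 56195-56520, the CD31 library with the fewest genes with a count (12601). Against non-tumor brain Krt23 was higher by 5.09 ± 1.45 in PDGFRb lung BrM (edgeR, adjusted p = 0.026), 6.47 ± 1.53 in PDGFRb breast BrM (adjusted p = 0.019), 5.48 ± 1.42 in CD31 lung BrM (adjusted p = 0.0068) and 7.40 ± 1.51 in CD31 breast BrM (adjusted p = 0.0014). Without non-tumor mouse 54132 Krt23 had 7.0 in PDGFRb lung BrM, 8.40 in PDGFRb breast BrM, 9.14 in CD31 lung BrM and 11.06 in CD31 breast BrM, and without breast BrM mouse 53072 the CD31 breast value was 6.54. The PDGFRb lung call was lost (adjusted p of 0.051 to 0.068) without lung BrM mouse 54957 or 56195-56520 or any non-tumor mouse but 54132, and the PDGFRb breast call (0.051 to 0.057) without non-tumor mouse 54135, 56727 or 56740. The date as a covariate ended 3 of the 4 calls, in PDGFRb lung BrM (adjusted p = 0.21), PDGFRb breast BrM (adjusted p = 0.18) and CD31 lung BrM (adjusted p = 0.06). The difference of lung from breast BrM did not pass the test in either sort, with -1.38 ± 1.35 among PDGFRb libraries (adjusted p = 0.64, and -1.82 without mouse 51950) and -1.92 ± 1.14 in the CD31 sort (adjusted p = 0.47).

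Among the basal keratins, Krt5 and Krt17 were scarce, and Krt14 was read mainly in breast BrM. Krt14 had 0.687, 1.64, 0 and 5.23 CPM in PDGFRb lung BrM and 0, 43.8, 1.88 and 124 CPM in PDGFRb breast BrM, and none of the 5 PDGFRb non-tumor libraries held a count. CD31 lung BrM held 1 count in all, CD31 breast BrM 12.5, 1.61, 2.10, 37.8 and 2.86 CPM, and CD31 non-tumor brain 3 counts, all in mouse 54132. Krt14 was thus read in 8 of 9 breast BrM libraries, at levels that differed widely between mice. It was at least 1270-fold higher in PDGFRb breast BrM than 3 counts over the non-tumor group (edgeR, adjusted p = 0.019) and at least 56.9-fold higher in PDGFRb lung BrM (adjusted p = 0.048). That lung call was lost, with adjusted p of 0.05 to 0.12, on leaving out any of the 13 PDGFRb libraries other than those of breast BrM mice 51950 and 52865. In the CD31 sort breast BrM had 356 times the non-tumor level (counting interval 121 to 1730, adjusted p = 0.00027), whereas lung BrM, with 1 count against 3, did not pass (adjusted p = 0.65). Krt14 was lower in CD31 lung than in CD31 breast BrM by a ratio of 864 (interval 155 to 34200, adjusted p = 0.003). Both PDGFRb calls of Krt14 were lost with the date as a covariate (adjusted p = 0.3 in lung BrM and 0.28 in breast BrM), as was the CD31 call of lung against breast BrM (adjusted p = 1). Fitted log2 values of Krt14 leaned on mouse 53072: without it they were 11.13 in PDGFRb breast BrM (12.58 with it), 6.84 in CD31 breast BrM (8.08 with it) and -7.83 between CD31 lung and breast BrM (-9.08 with it). They were 10.58 in CD31 breast BrM without non-tumor mouse 54132, -10.59 between CD31 lung and breast BrM without lung BrM mouse 54957, and 6.83 in PDGFRb lung BrM without mouse 56195-56520, against 8.12 with it. In the PDGFRb sort the difference was -4.47 ± 1.97 on the log2 scale and did not pass (adjusted p = 0.23). Krt5, the usual partner of Krt14, had no count in 27 libraries and 6 counts in CD31 lung BrM mouse 51697. Krt17, a type I keratin of skin appendages and stressed epidermis, had 120 counts (7.68 CPM) in CD31 lung BrM mouse 56195-56520 and 24 counts (1.15 CPM) in CD31 breast BrM mouse 51950, and at most 0.533 CPM in the other 26 libraries. Both were below the filter on low counts and were not tested. Of the Krt14 transcript sequence, 13.9% of 50-base words also occur in other genes, mostly Krt16, while its expected count was fractional in 0 of 28 libraries.

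Counted by comparison, 7 of the 9 members passed the filter in every fit, so the counts cover those 7 and not Krt5 and Krt17. Some passed it only through tumor groups. Krt14 had no count in PDGFRb and Krt20 none in CD31 non-tumor libraries, where Krt7 and Krt19 had 3 and 2 counts. Such members could hardly come out lower than non-tumor brain. The shares and medians over all genes given here are thus no like reference for them. In PDGFRb lung BrM against non-tumor brain, 7 of 7 were higher, where 17.5% of 17028 genes were called in either direction. For PDGFRb breast BrM against non-tumor brain it was 5 of 7, all but Krt19 and Krt20, against 8.99% of genes. CD31 lung BrM against non-tumor brain had 6 of 7 higher, all but Krt14, against 34.8% of 14876 genes, and CD31 breast BrM 5 of 7, again all but Krt19 and Krt20, against 30.1%. For lung against breast BrM, 3 of 7 were higher in the PDGFRb sort (Krt8, Krt19 and Krt20), where 5.47% of genes were called. In the CD31 sort 2 were higher (Krt19 and Krt20) and 1 lower (Krt14), where 2.13% of genes were called. Outside lung BrM, Krt19 and Krt20 were scarce in both sorts, and Krt14 was scarce in CD31 libraries outside breast BrM. They passed the filter through the tumor group where they were high. Their direction between the tumor types was thus close to fixed, and those shares are no like reference for them either. With the date as a covariate, 4 were called in PDGFRb lung BrM (Krt8, Krt18, Krt19 and Krt20) and 2 in PDGFRb breast BrM (Krt8 and Krt18) against non-tumor brain, and, for lung against breast BrM, 1 in PDGFRb and 0 in CD31 libraries, where it was Krt14, Krt19 and Krt20 that lost their calls (edgeR, 3 of 7 with an unadjusted p under 0.05 without the covariate). The share of all genes called with the covariate is not given here. A loss particular to keratins thus cannot be told from a general one. The comparisons with non-tumor brain share their non-tumor libraries within a sort. The median log2 change of the 7 against non-tumor brain was 8.44 in PDGFRb lung BrM (-0.03 over all tested genes), 6.48 in PDGFRb breast BrM (-0.16), 9.36 in CD31 lung BrM (-0.0) and 8.02 in CD31 breast BrM (0.04). The plot of fold changes shows the contrast of Krt19 and Krt20 with the rest.

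**Figure D2:**
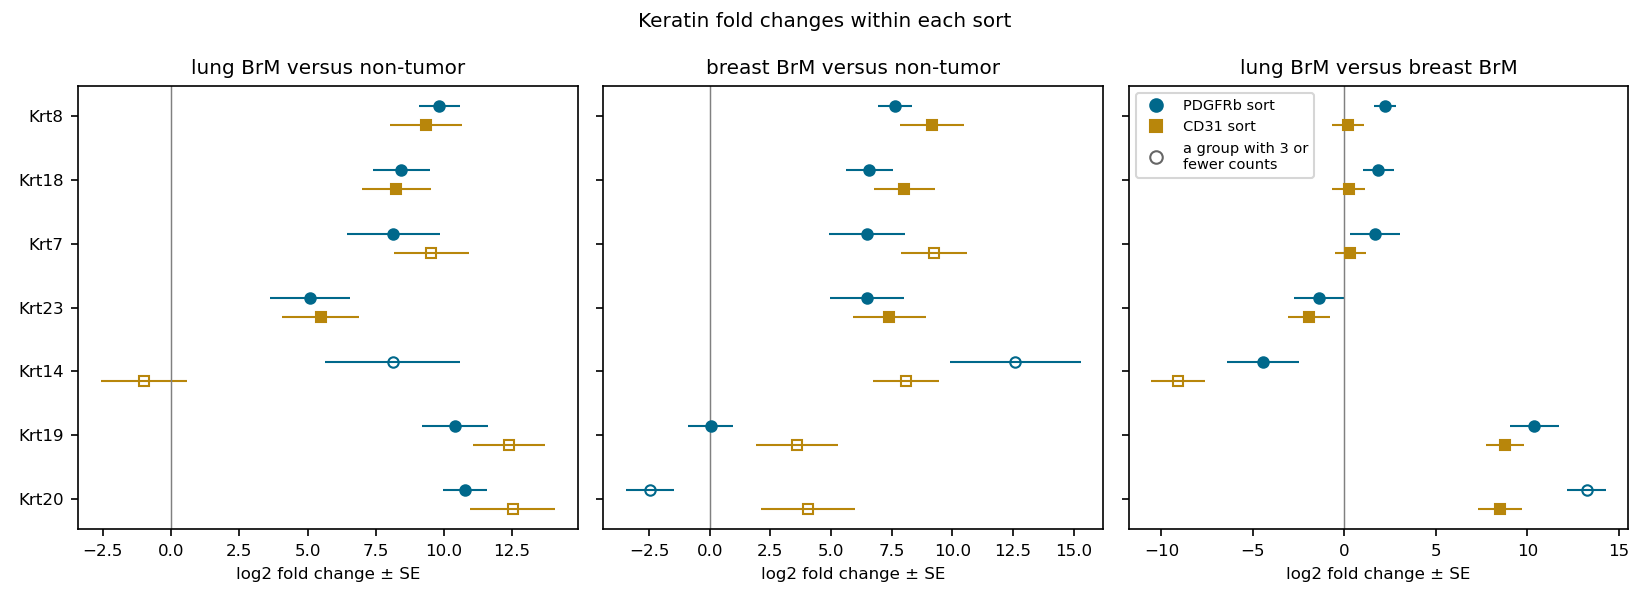
Log2 fold change ± SE by edgeR's quasi-likelihood test for the 7 tested keratins in lung BrM against non-tumor brain, breast BrM against non-tumor brain and lung against breast BrM, with circles for the PDGFRb sort and squares for the CD31 sort. Open symbols have a group with 3 or fewer counts, so that their size depends on the prior count. In lung against breast BrM, Krt19 and Krt20 lie at the right, Krt14 at the left, and the CD31 values of Krt8, Krt18 and Krt7 near 0.

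Levels of different keratins were compared per transcript length, as shares of the summed FPKM of the 9 members in each library. In PDGFRb libraries of lung BrM, Krt8 took 30.8 ± 3.17%, Krt18 42.7 ± 2.40%, Krt19 21.4 ± 3.99% and Krt20 3.69 ± 1.28% of the sum (SD, n = 4). In CD31 libraries of lung BrM, Krt8 took 27.9 ± 2.89%, Krt18 41.8 ± 4.88%, Krt19 21.2 ± 2.50% and Krt20 5.33 ± 3.14% (SD, n = 5). PDGFRb libraries of breast BrM had 34.4 ± 8.05% Krt8, 56.8 ± 2.33% Krt18, 5.94 ± 5.13% Krt23, 1.82 ± 2.04% Krt14 and 0.0705% Krt19 (n = 4). CD31 libraries of breast BrM had 30.2 ± 5.54% Krt8, 58.3 ± 4.68% Krt18, 8.34 ± 2.51% Krt23, 1.85 ± 0.53% Krt14 and 0.113% Krt19 (n = 5). Lung BrM thus had a smaller mean share of Krt18, Krt23 and Krt14 and a larger one of Krt19 and Krt20 than breast BrM. Mean Krt8 levels in lung BrM were 3173 CPM in PDGFRb and 306 CPM in CD31 libraries, whereas the mean shares of Krt8, Krt18 and Krt19 in those sorts lay within 3 percentage points of each other.

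**Figure D3:**
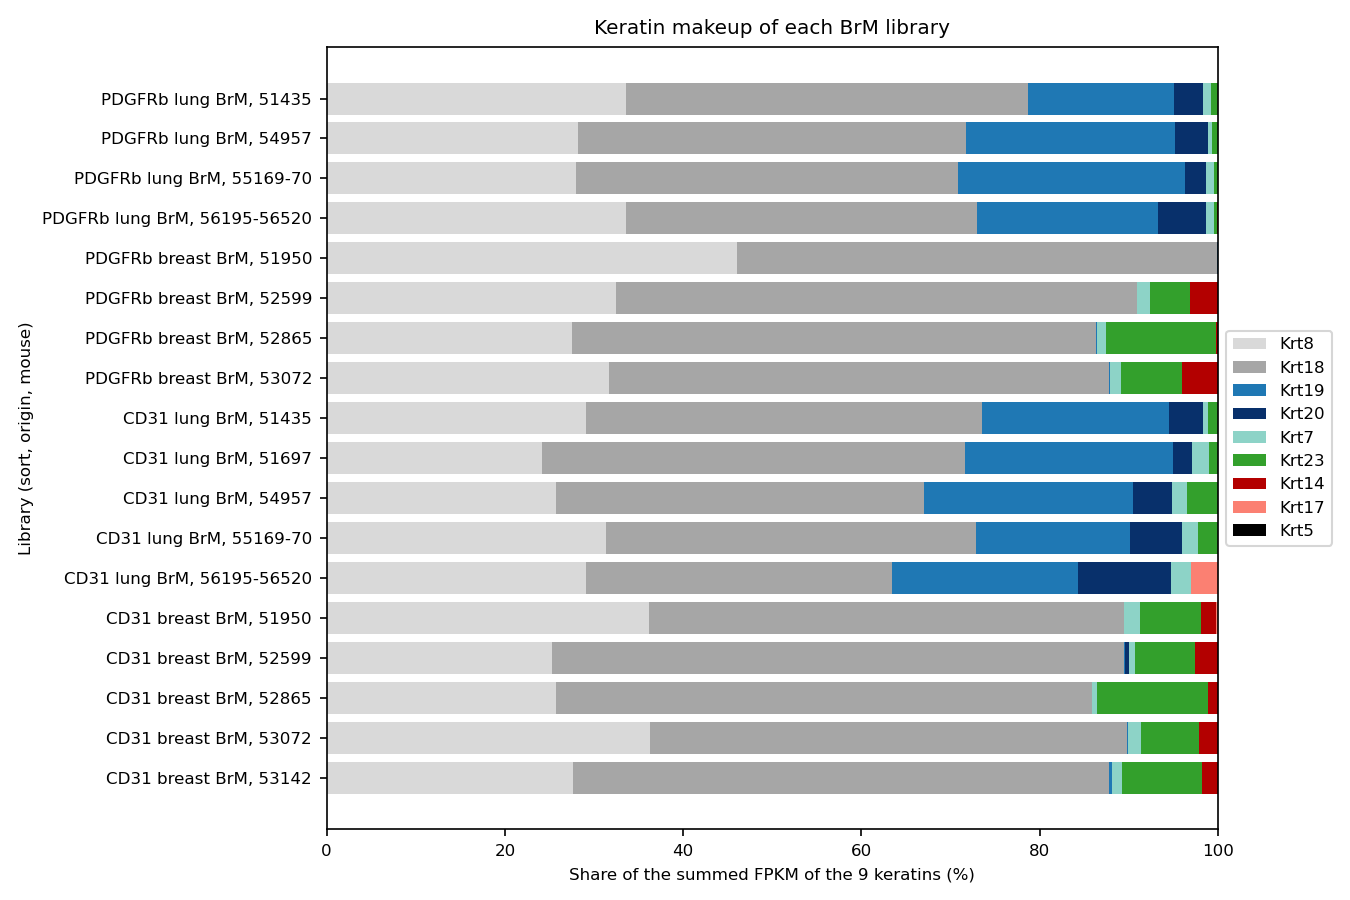
Share of each keratin in the summed FPKM of the 9 members, in percent, with a bar for each of the 18 BrM libraries named by sort, origin and mouse. Krt8 and Krt18 fill most of every bar, Krt19 and Krt20 appear in the 9 lung BrM bars, and Krt23 and Krt14 are widest in breast BrM, with none in PDGFRb mouse 51950.

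To compare keratins within a library, each count was divided by that of Krt8 in the same library. Such a ratio can also move with the use of Krt8 itself, and whether both lines use Krt8 alike was not tested. Krt8 was 4.63-fold higher in PDGFRb lung than in PDGFRb breast BrM, where summed epithelial markers overlapped (854 to 2041 and 876 to 2672 CPM). Lung and breast BrM were compared by two-sided exact permutation tests within each sort (12 tests, p not adjusted, smallest possible p 0.029 in the PDGFRb and 0.0079 in the CD31 sort). Krt19 per Krt8 was higher in lung BrM by 9.25 on the log2 scale in the PDGFRb sort (exact p = 0.029) and by 8.35 in the CD31 sort (exact p = 0.0079). Krt20 per Krt8 was higher in lung BrM by 10.15 among PDGFRb libraries (exact p = 0.029) and by 8.46 among CD31 libraries (exact p = 0.0079). Lung and breast BrM did not overlap in these 4 comparisons. Krt20 had no count in 2 of the 4 PDGFRb and 3 of the 5 CD31 breast BrM libraries. Its log2 differences therefore depended on depth and on the constant added to each count, and their sizes were not measured closely. In the CD31 sort, Krt14 per Krt8 was lower in lung BrM by 7.53 on the log2 scale and Krt23 per Krt8 by 3.56, without overlap (exact p = 0.0079 each). Krt14 had 1 count over the 5 CD31 lung BrM libraries, so the size of its difference also depended on depth and the added constant. Without the CD31 library of mouse 56195-56520, in which Krt23 was 0, the Krt23 difference was -2.12. In the PDGFRb sort the differences were -5.35 for Krt14 (lung minus breast BrM, exact p = 0.11) and -1.3 for Krt23 (exact p = 0.66), and without mouse 51950, whose Krt14 and Krt23 were 0, they were -7.16 and -3.76 (exact p = 0.057 each, the smallest those groups allow). Krt18 per Krt8 differed by -0.28 among PDGFRb libraries (exact p = 0.17) and by -0.38 among CD31 libraries (exact p = 0.10). Krt7 per Krt8 differed by 1.37 among PDGFRb libraries (exact p = 1) and by 0.76 among CD31 libraries (exact p = 0.17). Krt8 is itself the least certain divisor in its counting: 26.9% of its 50-base words also occur in the pseudogene Krt8-ps, and its expected count was fractional in 11 of 28 libraries.

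Within a mouse, the PDGFRb sort carried more Krt8 than the CD31 sort in 4 of 4 lung BrM, 4 of 4 breast BrM and 5 of 5 non-tumor mice. The ratios were 2.9, 18.9, 78.2 and 42.7 in lung BrM mice 51435, 54957, 55169-70 and 56195-56520, and 1.05, 18.3, 7.24 and 1.36 in breast BrM mice 51950, 52599, 52865 and 53072. Krt19 showed 2.0, 16.8, 140 and 36.3 in the same lung BrM mice. Of these lung BrM mice, 51435 had the smallest gap in both genes, and the highest CD31 Krt8 of its group (825 CPM). Across groups, 5 of 7 keratins were higher in PDGFRb than in CD31 lung BrM, where 19.6% of 18548 genes were called: Krt8 by 3.34 ± 0.90 on the log2 scale (edgeR, adjusted p = 0.0096), Krt18 by 3.11 ± 1.01 (adjusted p = 0.03), Krt19 by 3.17 ± 0.87 (adjusted p = 0.011), Krt20 by 3.16 ± 0.75 (adjusted p = 0.0044), and Krt14 with 122 counts against 1 (adjusted p = 0.017). With the mouse as a block, Krt14 was not called (log2 5.94, adjusted p = 0.14). Krt7 had 2.42 ± 1.15 (adjusted p = 0.15) and Krt23 1.90 ± 1.31 (adjusted p = 0.34). Without the lung BrM libraries that name 2 mice, none of the 5 kept its call, Krt8 having 2.48 and Krt20 2.38 on the log2 scale (adjusted p = 0.23 and 0.21).

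Single libraries also moved these sort differences. Without CD31 lung BrM mouse 51435 the log2 values of Krt8, Krt18, Krt19 and Krt20 were 4.13, 3.80, 3.78 and 3.85. Without PDGFRb mouse 56195-56520 the Krt14 call was lost (5.16, adjusted p = 0.072), and without CD31 mouse 54957 its value was 8.03. Krt18 lost its call (adjusted p of 0.06 to 0.07) without PDGFRb mouse 54957 or 56195-56520 or CD31 mouse 54957, 55169-70 or 56195-56520. In breast BrM 0 of 7 keratins were called between the sorts by edgeR, where 16.5% of genes were. Of the 7, 0 had an unadjusted p under 0.05 in edgeR. The alternative limma-voom called 2, Krt8 and Krt18, and its share over all genes is not given here. Krt8 had 1.33 ± 0.85 (adjusted p = 0.33) and Krt18 1.49 ± 0.97 (adjusted p = 0.33). The difference of lung from breast BrM was tested between the sorts, and 0 of 7 keratins passed in edgeR against 1.95% of genes. The smallest p was that of Krt20 (4.75 ± 1.69, unadjusted p = 0.0099, adjusted p = 0.14), which DESeq2 called (adjusted p = 0.035).

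**Figure D4:**
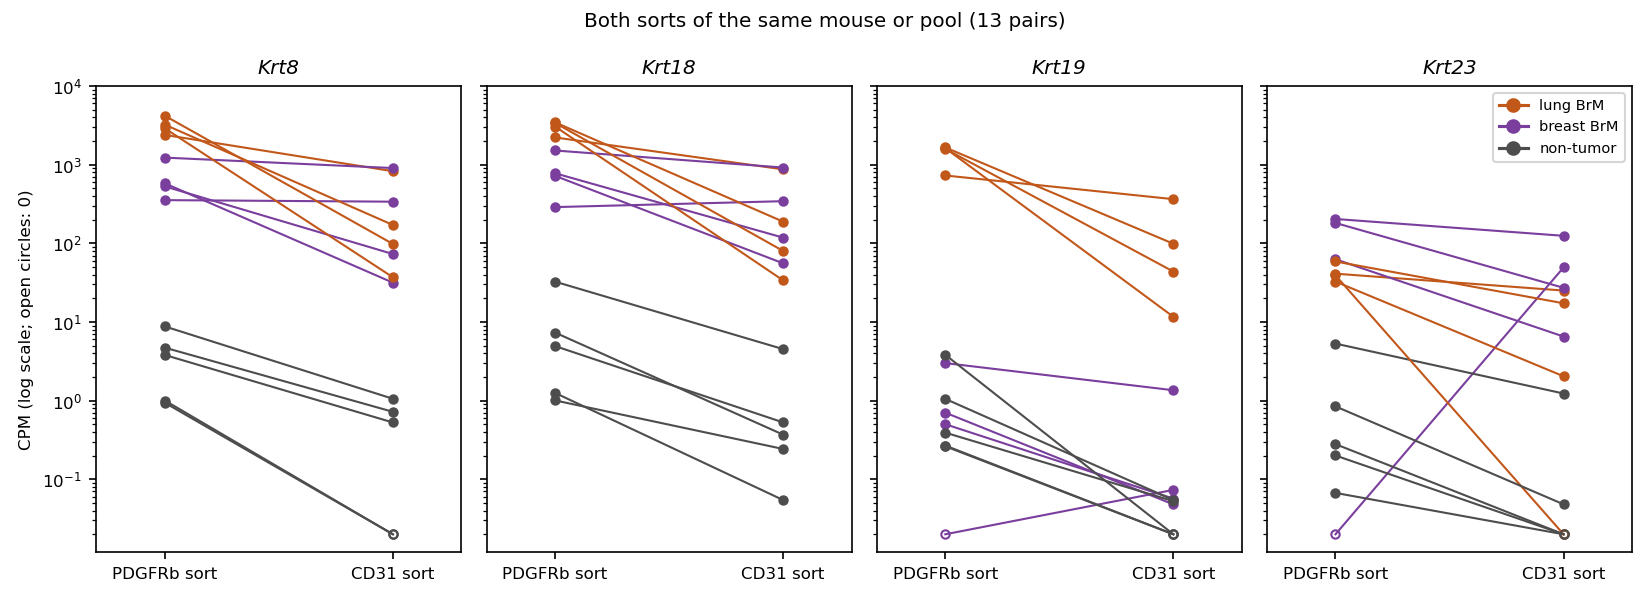
CPM of Krt8, Krt18, Krt19 and Krt23 on a logarithmic axis in the PDGFRb sort (left) and the CD31 sort (right) of the same mouse or pool, with a line for each of 13 pairs colored by group and open circles for a count of 0. Krt8 falls to the right in all 13 pairs, most steeply in lung BrM mouse 55169-70 among BrM pairs, and Krt23 is 0 in the PDGFRb library of breast BrM mouse 51950.

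Non-tumor brain gives the background of these measurements. The 9 keratins summed to 2.75 to 49.7 CPM in PDGFRb libraries and 0.109 to 7.10 CPM in CD31 libraries there, and 4 of 7 tested were higher in the PDGFRb sort, where 27.9% of genes were called. Krt8 was higher by 2.84 ± 0.95 on the log2 scale (edgeR, adjusted p = 0.025) and Krt18 by 2.88 ± 1.02 (adjusted p = 0.035). Krt19 had 123 counts against 2 (ratio 62.5, counting interval 16.9 to 522, adjusted p = 0.006) and Krt20 23 against 0, at least 7.79-fold higher against 3 counts over the group (adjusted p = 0.022). Mouse 54132 had the highest Krt8, Krt18 and Krt23 of the non-tumor libraries in both sorts, and the highest Krt7 in the PDGFRb sort. Without its PDGFRb library the changes of Krt8 and Krt18 were 2.21 and 1.37 and both calls were lost (adjusted p = 0.095 and 0.34), and without its CD31 library that of Krt18 was 4.73. The Krt8 and Krt18 calls were also lost without CD31 mouse 53680 or 56727, and that of Krt18 without CD31 mouse 54135 or 56740 (adjusted p of 0.062 to 0.086 over these). The Krt19 change lost size without PDGFRb mouse 56740 (log2 3.93, against 5.17 with it). With mouse 54135 grouped by its cell type label, against its marker sums, none of the 4 kept its call (adjusted p of 0.4 to 0.67).

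Of the 46 other keratin symbols, 9 had no count in any library and 9 reached a mean of 1 CPM in a group. Krt15, a type I keratin of basal epithelial cells, was the most abundant, with 0.616 CPM in PDGFRb lung BrM, 124 CPM in PDGFRb breast BrM and 2.07 CPM in PDGFRb non-tumor brain. Its CD31 means were 0.026 CPM in lung BrM, 34.6 CPM in breast BrM and 0.0419 CPM in non-tumor brain. It was lower in lung than in breast BrM by 7.62 ± 1.22 on the log2 scale in the PDGFRb sort (edgeR, adjusted p = 0.003) and by 9.97 ± 1.3 in the CD31 sort (adjusted p = 0.00055). Krt79, a type II keratin of hair follicle and sebaceous ducts, and Krt80 were higher in PDGFRb lung BrM than in non-tumor brain by 6.12 ± 1.64 and 5.23 ± 1.57 (adjusted p = 0.02 and 0.034). Krt6a and Krt4 had their highest means in lung BrM and Krt83 in breast BrM, at no more than 3.21 CPM each. A single library carried most of the highest mean of Krt6a (13.6 CPM) and of Krt4 (12.6 CPM). Krt8-ps averaged 2.30 CPM in PDGFRb lung BrM, 0.532 CPM in PDGFRb breast BrM and 0 CPM in PDGFRb non-tumor brain and shares sequence with Krt8. Krt10 ranged from 7.84 to 8.85 CPM between the PDGFRb group means. Krt222, a keratin-like gene, was highest in CD31 non-tumor brain at 12.5 CPM and without a count in PDGFRb lung BrM.

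Among genes that anchor keratins to desmosomes and hemidesmosomes, some changed in each comparison with non-tumor brain. Of 15 tested linkers, 9 were higher and 2 lower in PDGFRb lung BrM than in non-tumor brain (17.5% of all genes called), and 7 higher and 1 lower in PDGFRb breast BrM (8.99%). Of the CD31 linkers tested, 4 of 14 were higher and 2 lower in lung BrM, near the share over all genes (34.8%), and 6 higher and 1 lower in breast BrM (30.1%). Itgb4, the integrin subunit of hemidesmosomes, was higher by 6.49 ± 0.80 on the log2 scale in PDGFRb lung BrM (edgeR, adjusted p = 0.00014) and by 5.35 ± 0.76 in PDGFRb breast BrM (adjusted p = 0.001). Dsg2, a desmosomal cadherin, was higher by 6.35 ± 1.06 in PDGFRb lung BrM (adjusted p = 0.0014) and by 4.59 ± 0.99 in PDGFRb breast BrM (adjusted p = 0.012). The plakins Ppl and Evpl, which link keratin filaments to desmosomes, were higher in PDGFRb lung than in PDGFRb breast BrM by 3.94 ± 0.95 and 3.76 ± 1.02 (adjusted p = 0.028 and 0.047), whereas Pkp3, a desmosomal plaque protein, was lower by 3.91 ± 0.68 (adjusted p = 0.0052). The median log2 change of the linkers was 2.85 in PDGFRb lung BrM, 2.62 in PDGFRb breast BrM, 0.95 in CD31 lung BrM and 1.49 in CD31 breast BrM. Their summed levels overlapped, at 1198 to 1934 CPM in PDGFRb lung BrM, 1029 to 1320 CPM in PDGFRb breast BrM and 1012 to 1497 CPM in PDGFRb non-tumor brain. Among 10 tested other intermediate filaments and lamins, 2 were higher (Nes and Lmna) and 1 lower (Synm) in PDGFRb lung BrM, and 1 was higher (Gfap) in PDGFRb breast BrM, beside 17.5% of all genes called in lung BrM and 8.99% in breast BrM. The median log2 changes of these genes were 0.21 in PDGFRb lung BrM and 0.04 in PDGFRb breast BrM. Of 8 tested in the CD31 sort, Vim, Lmna and Lmnb1 were higher and Synm lower in lung BrM (34.8% of all genes called), and Vim, Lmna and Lmnb1 higher in breast BrM (30.1%).

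Epithelial genes other than keratins also differed between lung and breast BrM. Summed over 20 markers they stood at 854 to 2041 CPM in PDGFRb lung BrM, 876 to 2672 CPM in PDGFRb breast BrM and 30.6 to 91.5 CPM in PDGFRb non-tumor brain, so lung BrM, with more Krt8, was not higher in this sum. The CD31 sums were 56.4 to 333 CPM in lung BrM, 105 to 2166 in breast BrM and 14.1 to 29.7 in non-tumor brain. Against non-tumor brain, 6 of 18 were higher in PDGFRb lung BrM (17.5% of all genes called) and 13 of 18 in PDGFRb breast BrM (8.99%), and 8 of 16 higher with 1 lower in CD31 lung BrM (34.8%) and 14 of 16 in CD31 breast BrM (30.1%). Cdh1, E-cadherin, averaged 663 ± 229 CPM in PDGFRb lung BrM (n = 4), 193 ± 161 in PDGFRb breast BrM (n = 4) and 3.78 ± 1.69 in PDGFRb non-tumor brain (n = 5). Lung and breast BrM did not differ past the threshold in Cdh1. The log2 difference was 1.77 ± 0.97 in the PDGFRb sort (edgeR, adjusted p = 0.32) and -1.09 ± 1.01 in the CD31 sort (adjusted p = 0.68). Claudin 7 (Cldn7) averaged 0.0681 ± 0.106 CPM in PDGFRb lung BrM and 99.7 ± 32.7 CPM in PDGFRb breast BrM (n = 4 each), lower in lung BrM by 10.53 ± 2.23 on the log2 scale (edgeR, adjusted p = 0.016). Cldn3, Grhl2 and Ovol1 were lower as well, by 8.10 ± 1.63, 7.45 ± 1.61 and 8.04 ± 1.89 (adjusted p = 0.013, 0.017 and 0.025), while Spint2 was higher by 1.91 ± 0.41 (adjusted p = 0.017).

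Gut epithelial genes stood beside Krt20. Of 7 tested, 6 were higher in PDGFRb lung than in PDGFRb breast BrM (5.47% of all genes called), and 3 of 4 in the CD31 sort (2.13%). Hnf4a, a transcription factor of liver and gut, averaged 212 ± 56.3 CPM in PDGFRb lung BrM (n = 4), against 1 count in the 4 PDGFRb breast BrM libraries, and 24.5 ± 13.4 CPM in CD31 lung BrM (n = 5), against no count in CD31 breast BrM. Cdh17, an intestinal cadherin, had 428 ± 143 CPM in PDGFRb lung BrM and 0.183 ± 0.17 CPM in PDGFRb breast BrM, higher by 11.30 ± 1.35 on the log2 scale (edgeR, adjusted p = 0.0004). Tff2 and Cdx2 averaged 97.0 and 7.61 CPM in PDGFRb lung BrM without a count in PDGFRb breast BrM. Both passed the filter through lung BrM, so they could not come out lower there. Hnf4a and Cdh17, scarce in breast BrM, could hardly do so either. The shares over all genes are thus no like reference for these counts of gut genes. Of 4 tested mammary luminal genes, Elf5, a transcription factor of milk-secreting cells, averaged 24.8 ± 15 CPM in PDGFRb breast BrM and had no count in PDGFRb lung BrM (adjusted p = 0.016), while Esr1 was higher in lung BrM by 6.70 ± 1.72 (adjusted p = 0.036). Some keratins and some of these genes also mark other cells of the brain's linings. Of 6 choroid plexus markers, 2 to 5 had a count in each PDGFRb lung BrM library. They summed to 466 to 947 CPM in PDGFRb lung BrM, 0.141 to 40.8 CPM in PDGFRb breast BrM and 78.3 to 1403 CPM in PDGFRb non-tumor brain. Of 5 tested, 2 were higher in PDGFRb lung than in PDGFRb breast BrM (Ttr and Clic6) and 0 lower, beside 5.47% of all genes. Against non-tumor brain, 3 were lower in PDGFRb breast BrM (median log2 -4.53, 8.99% of all genes called). In PDGFRb lung BrM 1 was higher, with a median log2 of -1.47 (17.5%). Of 7 markers of mesothelium and arachnoid barrier, summing to 425 to 1131 CPM in PDGFRb lung BrM, 0.282 to 4.47 CPM in PDGFRb breast BrM and 4.58 to 45.6 CPM in PDGFRb non-tumor brain, Msln made up most in lung BrM, at 850.5 ± 323.8 CPM. The other tested members of that list did not rise in PDGFRb lung BrM against non-tumor brain. Slc47a1 was called lower (-3.1 ± 0.92, edgeR, adjusted p = 0.033), and Dpp4 did not pass (-0.35 ± 1.43, adjusted p = 0.91). The part of such cells in the keratin levels was not tested.

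Over the 18 BrM libraries, after each group's mean was taken out, log2(CPM + 1) of Krt8 followed Krt18 most closely of 9275 genes (Pearson r = 0.977, a description over libraries that share depth and amount of epithelial RNA). Next for Krt8 came Rbm47 (0.953), Sdc4 (0.947), Lgals3 (0.936) and Spint2 (0.892), and for Krt18 after Krt8 came Lgals3 (0.952), Rbm47 (0.943), Sdc4 (0.935) and Aqp5 (0.908). The genes nearest to Krt19 were Apoa1 (0.874), Lgals2 (0.858), Apob (0.855), Nusap1 (0.845) and Tm4sf4 (0.845), and those nearest to Krt20 were Rbp4 (0.919), Apob (0.865), Tm4sf4 (0.853), Msln (0.846) and Cdh17 (0.845). Krt7 stood nearest to Sema4a (0.958), Ptprf (0.94), Eya2 (0.93), Wwc1 (0.921) and Gpd1 (0.918), and Krt23 to Elf3 (0.975), Cdh1 (0.961), Dennd2d (0.958), Ppa2 (0.956) and Igsf3 (0.955), both with mouse 51950 at 0 in the PDGFRb sort. Krt14 was nearest to Haus5 (0.88), Mphosph10 (0.857), Fbxo32 (0.836), Cul1 (0.836) and Zfp637 (0.834). Krt8 had r = 0.751 with Krt19, 0.746 with Krt7, 0.644 with Krt23 and 0.48 with Krt20. Leaving out 1 library kept 4 to 5 of the 5 genes for Krt8, 3 to 5 for Krt20, 2 to 5 for Krt18, 1 to 5 for Krt7, Krt14 and Krt23 and 0 to 5 for Krt19. On log2(CPM + 0.1) all 5 were kept for Krt8 and Krt18, 2 for Krt14, Krt20 and Krt23, 1 for Krt7 and 0 for Krt19.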

How the data were processed

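Full-length cDNA libraries (SMART-Seq HT with Nextera XT, unstranded and without molecular identifiers, per the labels' protocols) were aligned to mm10 with STAR 2.7.9a and quantified with RSEM 1.3.3, which the submitters' processing notes name beside edgeR 3.36.0 and limma 3.50.3. The deposited expected counts per gene were used as the main values and rounded to whole numbers for tests. The deposited FPKM values, scaled for length and depth by the authors, were used to compare genes with each other, and the authors' deposited log2 normalized values as an alternative.

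Samples were grouped by title, and replicates are mice or pools. CPM is the expected count per 1000000 of a library's total. Genes were filtered with filterByExpr, scaled with TMM and tested with edgeR 4.0.16 quasi-likelihood (robust, R 4.3.3), in 1 fit of 3 groups per sort and 1 fit of all 6 groups for comparisons between sorts. P-values were adjusted over all genes tested (Benjamini-Hochberg, called under 0.05), and SE is the log2 change divided by the root of F. Alternatives used DESeq2 1.42.0 and limma 3.58.1. Fold bounds set 3 counts over a group without counts, and count ratios have 95% intervals, both for counting error only. Ratio tests used log2 of (count + 0.5) over (Krt8 count + 0.5) with scipy 1.17.1.

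The 13 pairs of sorts come from the same animals or pools, which pairs them. Their deviations from group means correlated at -0.08 to 0.25 (median 0), with 2 pairs over 0.1.

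The named genes are all 9 members, up to 4 called genes with the largest change per list, other keratins with a mean of at least 1 CPM in a group, and the 5 genes most like each keratin. Spint2, Ttr, Clic6, Msln, Slc47a1 and Dpp4 fall outside this rule and were chosen after their values were seen. The members and lists were chosen with earlier results of these data known. Scripts were tested on simulated data.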

Additional observations from a re-analysis of the deposited data

Results flagged for a closer look

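In 16 of 54 sets of libraries (9 keratins in 6 groups), the highest or lowest library stood further from its neighbor, relative to the group's range, than Dixon's 95% critical value (0.829 for 4 and 0.71 for 5 libraries). Chance flags about 1 in 20 groups, and several sets are nearly all 0, so that a single count is enough. In lung BrM these were Krt19 in PDGFRb mouse 51435, the lowest of its group at 728.7 CPM, Krt20 in CD31 mouse 51435 at 106.7 CPM, Krt17 in CD31 mouse 56195-56520 at 7.676 CPM, Krt5 in CD31 mouse 51697 at 0.4662 CPM and Krt14 in CD31 mouse 54957 at 0.06916 CPM. In CD31 breast BrM they were Krt19 in mouse 53072 at 1.356 CPM, Krt17 in mouse 51950 at 1.152 CPM and Krt20 in mouse 52599 at 0.5867 CPM.

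Non-tumor mouse 54132 accounted for 7 sets. Its PDGFRb library had 32.56 CPM of Krt18, 5.312 CPM of Krt23 and 2.735 CPM of Krt7, and its CD31 library 4.519 CPM of Krt18, 1.232 CPM of Krt23, 0.1761 CPM of Krt14 and 0.05869 CPM of Krt17. The last set was Krt19 in PDGFRb non-tumor mouse 56740 at 3.827 CPM.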

How the results depend on the processing

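Of the results on single keratins, 2256 kept direction and side of the threshold, 130 lost and 12 gained a call, 36 turned direction and 36 without a test moved; of the counts, 313 stayed within 1.5 times and 22 did not. For these the cause was not tested. Shares of all genes called under the alternatives are not given here, so the counts below have no such reference. With the date as a covariate, keratins called were 4 and not 7 for PDGFRb lung BrM and 2 and not 5 for PDGFRb breast BrM against non-tumor brain, and, for lung against breast BrM, 1 and not 3 in the PDGFRb and 0 and not 3 in the CD31 sort. For PDGFRb breast BrM, log2(FPKM + 1) gave 3 and log2(FPKM + 0.1) gave 2, and for CD31 breast BrM limma-voom gave 3. Between sorts, limma-voom called 2 (breast BrM) and 0 (non-tumor), no filter 3 (lung BrM) and 2 (non-tumor), and DESeq2 1 for the difference between tumor types. Lung BrM had 0 without the libraries naming 2 mice and 3 with mouse 54135 grouped by cell type label, which left 0 in non-tumor brain, while leaving out that mouse left 2. Leaving out 1 library gave 3 to 6 for PDGFRb breast BrM against non-tumor brain, 3 to 5 between sorts in lung BrM and 2 to 5 in non-tumor brain. With the mouse as a replicate block, Krt14 lost its call between sorts in lung BrM (log2 5.94), and no other call between sorts changed.

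Signs turned only for uncalled changes. Krt19 in PDGFRb breast BrM against non-tumor brain had -0.05 with RLE scaling, -0.02 in DESeq2, -0.50 in limma-voom and on the deposited log2 values, -0.01 with no filter, -0.06 with a filter at 1 CPM, -0.23 without mouse 54135, -0.03 on log2(FPKM + 1) and -0.29 on log2(FPKM + 0.1), and -1.45 to 1.26 on leaving out a library. Krt23 in PDGFRb lung against breast BrM had 0.01 in limma-voom, 0.99 on the deposited log2 values, 0.05 on log2(FPKM + 1) and 0.85 on log2(FPKM + 0.1). Krt14 in CD31 lung BrM against non-tumor brain had 0.03 in limma-voom, 2.50 with the date, 0.02 on the deposited log2 values and -2.5 to 1.5 on leaving out a library. In CD31 lung against breast BrM the date gave -0.85 for Krt8 and -0.87 for Krt18, and leaving out a library -0.56 to 1.35 for Krt8, -0.42 to 1.24 for Krt18 and -0.29 to 1.52 for Krt7. Leaving out a library also gave -2.29 to 0.97 for Krt20 between breast BrM sorts, -2.85 to 0.00 for Krt14 between non-tumor sorts, -0.27 to 1.06 for Krt23 in the difference between tumor types and -0.83 to 2.17 for Krt7 per Krt8 in the PDGFRb sort. No BrM library had under 100 Krt8 counts, so leaving out such libraries was not run. Depth limits Krt5, Krt14, Krt17 and Krt20, which stood at or near 0 counts in several groups.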
